A study of Mus musculus with 6 samples.

Results

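The genes described here are 33 named components of the contractile apparatus of smooth muscle, out of 19938 genes measured by Affymetrix Mouse Gene 1.0 arrays in small intestinal tissue of mouse embryos at E18.5, shortly before birth. They were chosen by symbol, each read at the brightest probe set over the 6 arrays among those annotated to that gene alone, and all 33 were measured. The control group held 3 samples labelled as wildtype and the other group 3 samples labelled as an E-cadherin conditional knockout (cKO). Which cells recombined, which exons were removed, the strain and the number of embryos per sample are not given. The samples were pieces of tissue and not sorted cells, so a larger share of muscle cells in the tissue and more RNA per muscle cell cannot be told apart. Values are log2 expression as deposited, and a difference of 1 is a 2-fold change.

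Smooth muscle cells form the circular and longitudinal layers of the gut wall and the muscularis mucosae, and also lie within the cores of the villi and the walls of vessels. They shorten when calcium enters through L-type channels or leaves internal stores and, with calmodulin, activates myosin light chain kinase. The kinase phosphorylates the regulatory light chain of smooth muscle myosin, a myosin phosphatase reverses this, and muscarinic receptors and calcium-activated potassium channels set how much calcium enters. The genes of the filaments are controlled in large part by serum response factor (SRF) and its coactivator myocardin, which act through a short DNA element, the CArG box.

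Of the 33 genes, 28 rose in cKO, 1 fell and 4 did not pass the test (limma, Benjamini-Hochberg adjusted p under 0.05 over all genes), whereas 6.81% of all genes tested rose and 7.36% fell (14.2% in either direction). The median difference over the 33 was 0.80, against -0.09 over all genes. The 28 increases ran from 0.47 to 1.47, that is from 1.39-fold to 2.77-fold, and 10 of them reached 2-fold. On 31 of the 33 genes all 3 cKO values lay above all 3 control values, as they did for 16% of all genes, and on 1 all lay below (19.3%, and 35.4% in either direction). A separate fit took the 50% of genes with the higher mean over all 6 arrays, cKO included, and adjusted p-values over those. There 16.3% of genes rose, and so did 26 of the 30 smooth muscle genes kept. A gene high only in cKO can enter that way, as Kcnmb1 did (mean 6.33 in controls, 7.80 in cKO). The count of 26 is therefore no separate support. All 11 filament genes rose (median 0.86). Of the 11 genes of cytoskeletal linkage 9 rose and 1 fell (median 1.00). Of the 5 channels and receptors 3 rose (median 0.51), and of the 6 regulators 5 rose (median 0.69). Ppp1r12b, counted among these 5 and among the 10 at 2-fold, was read at the brightest of its 7 probe sets. It was not called with their mean (limma adjusted p = 0.982), where 4 of the 6 regulators rose. Without control 2 the count of increases dropped from 28 to 14, and without control 3 to 18, with medians of 0.82 and 0.71. Of all genes, 2.55% and 3.35% then rose.

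**Figure D1:**
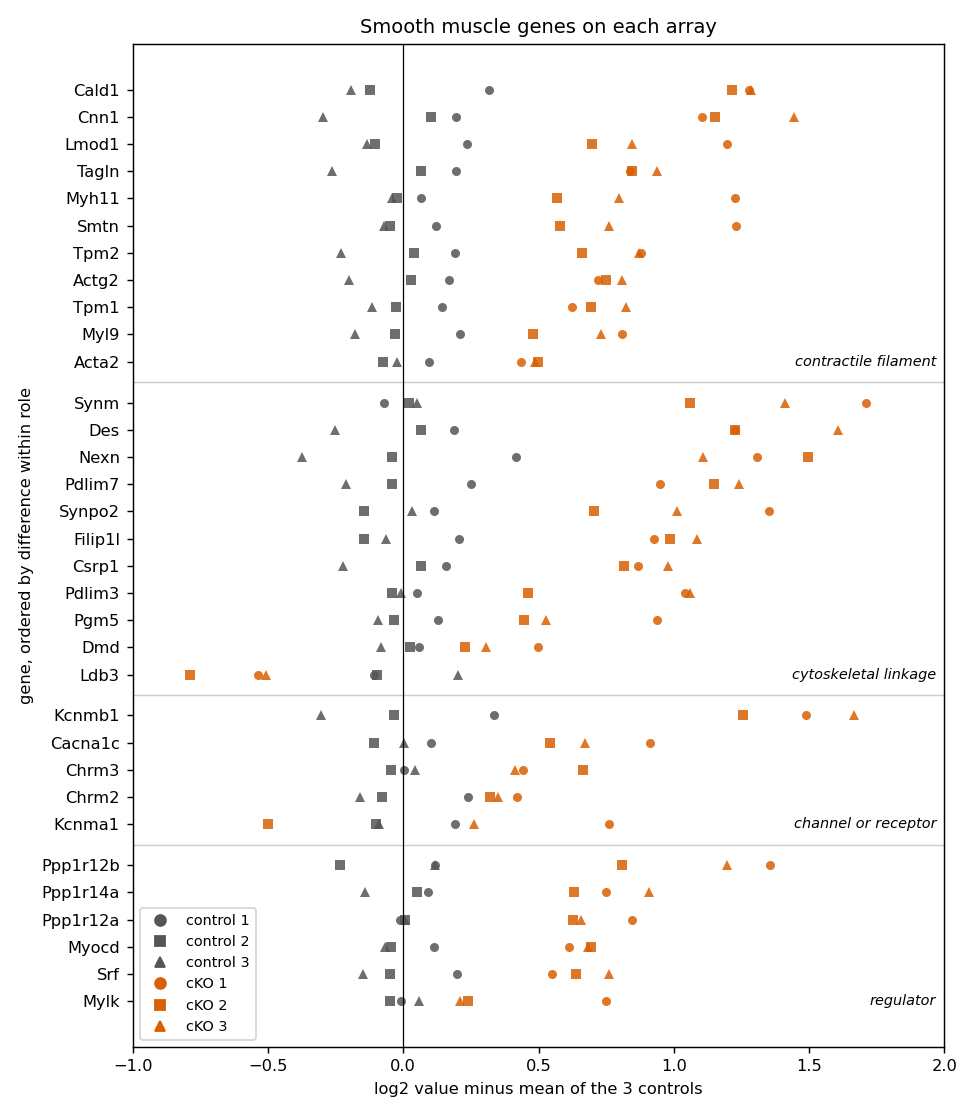
Log2 value of each of the 33 smooth muscle genes minus the mean of the 3 controls (horizontal axis), by role and, within a role, by difference, with grey symbols for controls and orange for cKO, and a symbol shape for each replicate number. The cKO symbols lie to the right of all control symbols for 31 genes, to the left for Ldb3, and overlap them for Kcnma1.

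The targeted gene, Cdh1, which encodes E-cadherin (probe set 10575052), read 9.86, 9.82 and 10.15 on control arrays 1, 2 and 3, against 9.70, 8.38 and 8.91 on cKO arrays 1, 2 and 3, a difference of -0.95 (SE 0.31) that did not pass the test (limma adjusted p = 0.0884). Whether its probes lie in the deleted part is not given. Without cKO 1, the highest of the 3, the difference was -1.3 (adjusted p = 0.0118). On cKO 2 the dim genes lay lower than on the other arrays, with a median shift of -0.37 over 1231 chemosensory receptor genes, against -0.06 to 0.09 on the others. Background is taken here as the 95th percentile of these receptor genes on each array, 5.79 to 6.36. Of the 33 smooth muscle genes, 30 lay above it on all 6 arrays, and the others were Dmd, Cacna1c and Kcnmb1. Without cKO 2 the count of increases was 28 and that of decreases 0.

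Both transcriptional regulators among the 33 genes rose. Myocd, the gene of myocardin (probe set 10386996), read 7.74, 7.58 and 7.56 on control arrays 1, 2 and 3, against 8.24, 8.32 and 8.31 on cKO arrays 1, 2 and 3. The 3 cKO arrays lay within 0.08 of each other and 0.50 or more above every control. The difference was 0.66 (SE 0.11, 1.58-fold, adjusted p = 0.00801), and it was not called without control 2 (0.0518). Srf (probe set 10451363), the gene of serum response factor, read 8.26, 8.01 and 7.91 in the controls, against 8.61, 8.70 and 8.82 in cKO. The groups did not overlap, and the difference of 0.65 (SE 0.13, adjusted p = 0.0188) lost its call when control 2, control 3 or cKO 3 was left out (0.0880, 0.0736 and 0.0732). The genes of the myocardin-related factors, Mrtfa and Mrtfb, differed by -0.20 and -0.18 and did not pass (adjusted p = 0.45 and 0.34).

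The proximal promoters show how the CArG box is placed in genes that rose and in the gene that fell. RefSeq promoters (GRCm38.p6, 250 bases before to 50 bases after the start) were found for 28 of the 33 genes, 36 promoters in all, but not for Actg2, Myh11, Myocd, Nexn and Tagln. The CArG box has 10 bases, a pair of C and a pair of G around 6 bases that are each A or T, a pattern that is the same on both strands. It occurred in 6 of the 36 promoters (16.7%) and in 535 of 32851 promoters of the same length (1.63%). A CArG-like box, with 1 of the 6 inner bases G or C, occurred in 6 of the 36 (16.7%) and in 2792 of all (8.50%). The 5 sequences below carry boxes in capitals, all other bases are in lower case, and each is written 5′ to 3′ on the gene's own strand. Acta2 and Myl9 are shown as filament genes, Srf as the regulator, Filip1l as a linkage gene and Ldb3 as the gene that fell.
Acta2, chr19:34255324-34255623, minus strand: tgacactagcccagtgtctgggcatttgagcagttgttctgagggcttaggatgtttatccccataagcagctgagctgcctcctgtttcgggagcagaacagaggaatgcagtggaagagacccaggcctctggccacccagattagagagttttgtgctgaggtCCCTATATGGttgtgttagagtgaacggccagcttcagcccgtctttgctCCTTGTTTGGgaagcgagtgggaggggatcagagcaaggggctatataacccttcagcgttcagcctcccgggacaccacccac
Myl9, chr2:156775214-156775513, plus strand: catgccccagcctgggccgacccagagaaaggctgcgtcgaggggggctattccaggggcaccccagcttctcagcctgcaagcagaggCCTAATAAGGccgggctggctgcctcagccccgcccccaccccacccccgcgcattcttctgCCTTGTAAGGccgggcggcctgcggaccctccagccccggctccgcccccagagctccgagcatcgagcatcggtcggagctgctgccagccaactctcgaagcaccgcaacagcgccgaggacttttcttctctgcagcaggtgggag
Srf, chr17:46556113-46556412, minus strand: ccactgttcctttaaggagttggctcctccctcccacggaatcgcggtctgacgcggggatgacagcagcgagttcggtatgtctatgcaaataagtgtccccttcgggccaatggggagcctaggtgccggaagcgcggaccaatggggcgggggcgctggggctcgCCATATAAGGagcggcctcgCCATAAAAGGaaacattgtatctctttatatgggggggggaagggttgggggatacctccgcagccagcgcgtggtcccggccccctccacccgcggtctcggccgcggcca
Filip1l, chr16:57548992-57549291, plus strand: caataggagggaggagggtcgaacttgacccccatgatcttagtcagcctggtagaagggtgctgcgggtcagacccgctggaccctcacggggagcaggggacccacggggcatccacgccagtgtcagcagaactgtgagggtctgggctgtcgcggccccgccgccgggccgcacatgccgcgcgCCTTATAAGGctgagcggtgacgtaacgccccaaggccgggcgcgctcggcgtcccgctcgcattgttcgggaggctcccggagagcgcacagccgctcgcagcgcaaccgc
Ldb3, chr14:34588558-34588857, minus strand: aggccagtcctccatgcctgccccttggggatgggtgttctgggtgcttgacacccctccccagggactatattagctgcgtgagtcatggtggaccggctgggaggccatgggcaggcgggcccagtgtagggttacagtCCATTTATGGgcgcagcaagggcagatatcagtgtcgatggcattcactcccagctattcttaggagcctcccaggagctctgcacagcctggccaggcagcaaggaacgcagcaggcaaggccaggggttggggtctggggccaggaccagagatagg
Srf holds 2 CArG boxes, which begin 82 and 62 bases before the start, in a promoter whose gene rose by 0.65. Myl9 holds a CArG box that begins 161 bases before the start and a CArG-like box at 99 bases. The Filip1l promoter shown, 1 of 2 listed for the gene, holds its CArG box at 62 bases. Acta2 holds no CArG box in this window but 2 CArG-like boxes, at 84 and 34 bases. Ldb3, the 1 gene that fell, also holds a CArG box, at 109 bases, which its other listed promoter shares. The remaining CArG box was in 1 of the 2 Dmd promoters, at 98 bases. CArG-like boxes were also found in Cacna1c, Pdlim3 and Synm. A match describes these letters only and does not show that a factor binds there.

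All 11 genes of the thin and thick filaments rose, by 0.47 to 1.26. Acta2 (probe set 10467124) and Actg2 (10545707) encode the smooth muscle actins, of which the second is the enteric form. Acta2 read 12.63, 12.46 and 12.51 on control arrays 1, 2 and 3, against 12.97, 13.03 and 13.02 on cKO arrays 1, 2 and 3. Its cKO arrays were nearly level and its groups did not overlap, with a difference of 0.47 (SE 0.11, adjusted p = 0.0263), the smallest increase that passed. Actg2 read 11.89, 11.75 and 11.52 in the controls, against 12.44, 12.47 and 12.53 in cKO, a difference of 0.76 (SE 0.13, adjusted p = 0.0089), with control 1 the highest control in both. Actin genes are alike in their coding sequence, so probes may not keep them fully apart. The skeletal and cytoplasmic forms Acta1 and Actb differed by 0.09 and 0.14 (adjusted p = 0.75 and 0.43), while the cardiac form Actc1 rose by 1.26 (adjusted p = 0.0043).

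Myh11, the heavy chain of smooth muscle myosin (probe set 10437885), read 10.49, 10.40 and 10.38 on control arrays 1, 2 and 3, against 11.65, 10.99 and 11.22 on cKO arrays 1, 2 and 3. The controls lay within 0.11 of each other and cKO 1 was the highest, with a difference of 0.86 (SE 0.18, 1.82-fold, adjusted p = 0.0183). Myl9, the regulatory light chain that the kinase phosphorylates, rose by 0.67 (SE 0.15), from 11.26 ± 0.20 to 11.93 ± 0.17 (SD, n = 3 each). The non-muscle heavy chain gene Myh10 rose by 0.85 (adjusted p = 0.0194), a call lost without control 2 or 3 (0.0719 and 0.0620), and Myl6, a light chain shared with non-muscle myosin, differed by 0.18 (adjusted p = 0.34).

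Cald1 and Cnn1 had the largest increases of the filament genes. Cald1 encodes caldesmon, an actin-binding inhibitor of myosin, and its probe set (10537184) read 9.43, 8.99 and 8.92 on control arrays 1, 2 and 3, against 10.39, 10.33 and 10.40 on cKO arrays 1, 2 and 3. The cKO arrays were within 0.07 of each other and 0.90 or more above every control, a difference of 1.26 (SE 0.15, 2.40-fold, adjusted p = 0.00294). Cnn1 encodes calponin, which also restrains the myosin ATPase, and read 10.23, 10.14 and 9.74 in the controls, against 11.14, 11.19 and 11.48 in cKO (probe set 10583809). The groups lay 0.91 apart, and the difference was 1.23 (SE 0.17, 2.35-fold, adjusted p = 0.00407). Tagln, the early smooth muscle marker transgelin, rose by 0.87 (SE 0.14), from 11.10 ± 0.24 to 11.98 ± 0.06 (SD, n = 3 each). The tropomyosin genes Tpm1 and Tpm2, whose products lie along actin, rose by 0.71 and 0.80. Lmod1, a leiomodin that starts actin filaments, rose by 0.91, and Smtn, the filament-binding smoothelin of contractile cells, by 0.86. The broadly expressed relatives Cnn2 and Cnn3 rose by 0.97 and 0.73 (Cnn3 not without control 2, adjusted p = 0.0605), and Tpm4 and Tagln2 differed by 0.43 and 0.25 without passing (adjusted p = 0.065 and 0.29).

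Of these 11 filament genes, Actg2, Tagln, Cnn1 and Cald1 passed under each of the 16 alternative settings, while the other 7 were lost when single arrays were left out. Acta2 was not called without control 1, 2 or 3 or cKO 3 (adjusted p = 0.0518, 0.127, 0.0890 and 0.0909) and Myl9 not without control 2, control 3, cKO 1 or cKO 3 (0.1, 0.0918, 0.0606 and 0.0845). Myh11 was lost without control 2, control 3 or cKO 3 (0.0764, 0.0750 and 0.0530), as was Smtn (0.0845, 0.0832 and 0.0531). Lmod1 was lost without control 2 or 3 (0.0658 and 0.0617), and Tpm1 and Tpm2 without control 2 (0.0533 and 0.0509). In each of these cases the difference kept its sign.

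**Figure D2:**
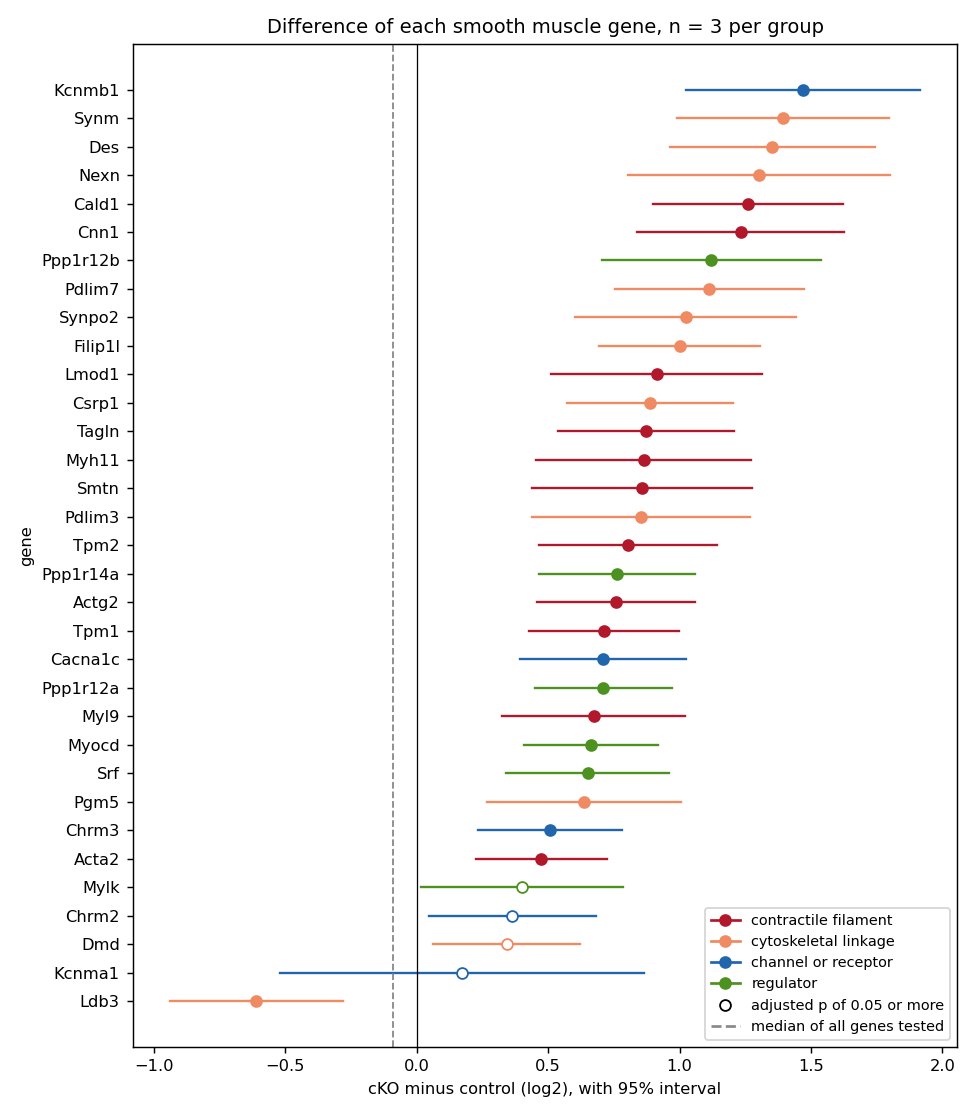
Difference of each of the 33 genes, cKO minus control on the log2 scale (horizontal axis), with limma's 95% interval, coloured by role, filled where the adjusted p was under 0.05 and open otherwise; the dashed line is the median of all genes tested. Differences run from -0.61 for Ldb3 to 1.47 for Kcnmb1, and the open symbols are Mylk, Chrm2, Dmd and Kcnma1.

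The genes that tie the filaments to dense bodies, to each other and to the membrane held several of the largest increases. Des encodes desmin, the intermediate filament protein of muscle (probe set 10347583), and read 9.96, 9.84 and 9.52 on control arrays 1, 2 and 3, against 11, 11 and 11.38 on cKO arrays 1, 2 and 3. Every cKO array lay 1.04 or more above every control, a difference of 1.35 (SE 0.17, 2.56-fold, adjusted p = 0.00298). Its partner in these filaments, synemin, is encoded by Synm (probe set 10564482), which read 6.92, 7.01 and 7.04 in the controls, against 8.70, 8.05 and 8.40 in cKO. The controls were nearly level and cKO 1 was the highest, a difference of 1.39 (SE 0.17, 2.63-fold, adjusted p = 0.00299).

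Nexn, the actin-binding protein nexilin (probe set 10502830), read 7.45, 6.99 and 6.66 on control arrays 1, 2 and 3, against 8.34, 8.53 and 8.14 on cKO arrays 1, 2 and 3. It had the widest spread among controls of all 33 genes (SD 0.40), still below every cKO value, and rose by 1.3 (SE 0.21, adjusted p = 0.00775). The LIM domain genes Pdlim7, Csrp1 and Pdlim3 rose by 1.11, 0.89 and 0.85. Synpo2, whose product bundles actin in muscle, rose by 1.02, Filip1l by 1.00 and Pgm5, which encodes a protein of muscle adhesion sites, by 0.64. A second Filip1l probe set, at 5.0 to 5.23 on all 6 arrays and so below background, differed by 0.01. Synpo2 was not called without control 2 (adjusted p = 0.0533). Pgm5 was lost without control 1, 2 or 3, cKO 1 or cKO 3 (0.0665, 0.130, 0.130, 0.0565 and 0.0759), and Pdlim3 without the same arrays (0.0539, 0.0820, 0.0759, 0.0503 and 0.0696).

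Ldb3 fell, and Dmd did not pass the test. Ldb3, which encodes a PDZ and LIM domain protein known from the Z line of striated muscle (probe set 10418950), read 7.28, 7.29 and 7.59 on control arrays 1, 2 and 3, against 6.85, 6.60 and 6.88 on cKO arrays 1, 2 and 3. All cKO arrays lay below all controls, a difference of -0.61 (SE 0.14, adjusted p = 0.0282). The call was lost without control 1, 2 or 3, cKO 2 or cKO 3 (0.0579, 0.0823, 0.0946, 0.0525 and 0.0642). Markers of skeletal muscle, where Ldb3 is also expressed, shifted by a mean of -0.03, -0.44 and -0.03 on cKO 1, 2 and 3. Of these 14 markers 8 lay above background on all 6 arrays. On cKO 2 the chemosensory receptor genes shifted too, by a median of -0.37. The part of the skeletal muscle markers in the fall of Ldb3 was not tested. Dmd, the dystrophin gene, read 6.16, 6.13 and 6.02 in the controls, all below background, and 6.60, 6.33 and 6.41 in cKO. The cKO mean lay 1.13-fold above the mean background of the control arrays, though cKO 2 (6.33) lay below the background of control 3 (6.36). The measured difference of 0.34 (95% interval 0.06 to 0.62) did not pass (limma adjusted p = 0.106). It passed with quantile normalization, cyclic loess and array weights (adjusted p = 0.0349, 0.0399 and 0.0313).

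Of the channels and receptors, Kcnmb1, Cacna1c and Chrm3 rose, and Kcnma1 and Chrm2 did not pass. Kcnmb1, the accessory beta subunit that tunes the large-conductance calcium-activated potassium channel in smooth muscle (probe set 10375137), read 6.67, 6.30 and 6.03 on control arrays 1, 2 and 3, against 7.82, 7.59 and 8.0 on cKO arrays 1, 2 and 3. It had the largest difference of the 33 genes, 1.47 (SE 0.19, 2.77-fold, adjusted p = 0.00349), with 2 of the 3 controls above background. Kcnma1, which encodes the pore of the same channel (probe set 10418053), read 8.0, 7.71 and 7.72 in the controls, against 8.57, 7.31 and 8.07 in cKO. Here cKO 2 lay below and cKO 1 above every control, and the difference of 0.17 (95% interval -0.52 to 0.87) did not pass (adjusted p = 0.73). Without cKO 1 it was -0.12.

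Cacna1c, the pore of the L-type calcium channel (probe set 10547322), read 6.21, 6.0 and 6.11 on control arrays 1, 2 and 3, against 7.02, 6.65 and 6.78 on cKO arrays 1, 2 and 3. Control 1 (6.21) lay barely above the background of its array (6.205), and controls 2 and 3 lay below theirs. The control level was thus at about background, and the size of the rise is uncertain. The difference of the deposited values was 0.71 (SE 0.13, limma adjusted p = 0.014), lost without control 2 or 3 (0.0736 and 0.0555). Chrm3 encodes the muscarinic receptor that drives gut contraction and read 6.42, 6.37 and 6.46 in the controls, against 6.86, 7.08 and 6.83 in cKO (probe set 10407591). Its groups did not overlap, and it rose by 0.51 (SE 0.12, adjusted p = 0.0282), a call lost without control 1, 2 or 3 or cKO 3 (0.0807, 0.124, 0.0798 and 0.0651). Chrm2, the more abundant muscarinic receptor of gut muscle (probe set 10537298), read 8.67, 8.35 and 8.27 in the controls, against 8.85, 8.75 and 8.78 in cKO. The lowest cKO array lay only 0.08 above the highest control, and the difference of 0.36 (95% interval 0.05 to 0.68) did not pass (adjusted p = 0.127). It passed with array weights (0.38, adjusted p = 0.0359).

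Of the genes that set light chain phosphorylation, Ppp1r12a, Ppp1r14a and the brightest probe set of Ppp1r12b rose, and Mylk did not pass the test. Mylk, which encodes myosin light chain kinase (probe set 10435345), read 8.98, 8.94 and 9.05 on control arrays 1, 2 and 3, against 9.74, 9.23 and 9.20 on cKO arrays 1, 2 and 3. The highest value was on cKO 1, and the difference of 0.40 (95% interval 0.02 to 0.79) did not pass (adjusted p = 0.16, and 0.068 to 0.35 under the alternatives). Ppp1r12a, the targeting subunit of the opposing phosphatase (probe set 10366238), read 9.07, 9.09 and 9.09 in the controls, against 9.93, 9.71 and 9.74 in cKO. The controls were level, and the difference of 0.71 (SE 0.11, adjusted p = 0.00678) was called under every alternative. Ppp1r14a, an inhibitor of that phosphatase, rose by 0.76 (SE 0.13), from 8.09 ± 0.12 to 8.85 ± 0.14 (SD, n = 3 each).

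Ppp1r12b, a second targeting subunit of this phosphatase, gave different answers by probe set. The brightest of its 7 probe sets (10357932) read 7.96, 7.61 and 7.96 on control arrays 1, 2 and 3, against 9.20, 8.65 and 9.04 on cKO arrays 1, 2 and 3, a difference of 1.12 (SE 0.18, adjusted p = 0.00704). The 6 others differed by -0.36 to 0.14. With the mean of all 7 the gene differed by 0.01 (adjusted p = 0.982). Of the 6 others, 3 lay above background on all arrays and differed by -0.22 to -0.12, and the other 3 lay below it on some or all arrays. Of the other genes, Kcnma1 and Filip1l had 2 probe sets each and the remaining 30 had 1.

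**Figure D3:**
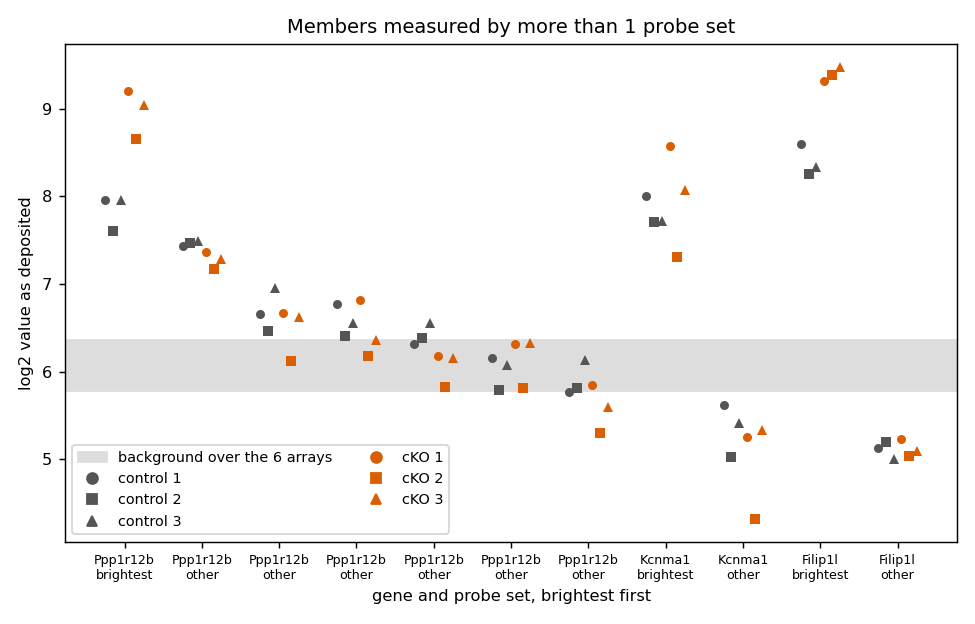
Log2 values as deposited (vertical axis) of every probe set of the 3 smooth muscle genes with more than 1, brightest first, with grey symbols for controls, orange for cKO and a grey band for background, which ran from 5.79 to 6.36 over the arrays. For Ppp1r12b the cKO arrays stand above the controls on the brightest probe set only.

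The order of arrays within a group was uneven over the genes. Among controls, control 1 was the highest for 28 of the 33 genes and control 3 the lowest for 21. Among cKO arrays, cKO 1 was the highest for 15 and cKO 3 for 14, while cKO 2 was the lowest for 20 and cKO 1 for 10. The median of all genes on cKO 2 lay -0.23 from the control mean. The mean shift from the control mean was 0.14, -0.04 and -0.10 on controls 1, 2 and 3 and 0.89, 0.66 and 0.83 on cKO 1, 2 and 3. Genes such as Acta2, Cald1, Tagln and Myocd were nearly level over the cKO arrays (SD 0.03 to 0.06), whereas Myh11, Smtn, Synm, Synpo2, Pgm5, Mylk and Kcnma1 were highest on cKO 1 (SD 0.26 to 0.63). Enterocyte markers ran the other way among the controls, with mean shifts of -0.24, 0.00 and 0.24.

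Beyond the 33, 137 other genes of smooth muscle structure and signalling were measured, of which 49 rose and 4 fell (median 0.30). Of 29 genes of the muscle membrane and adhesion sites 20 rose and 0 fell, with a median of 0.73. They include Flnc, a muscle filamin, at 1.29, Itga5, the fibronectin receptor chain, at 1.52 and Actn1, the alpha-actinin of dense bodies, at 1.22. At an unadjusted p under 0.05, too, 0 of the 29 fell by limma, and Sgca, a sarcoglycan, had the lowest difference (-0.16). Sgca lay above background on only 1 of the 6 arrays. Of 22 other filament isoforms 8 rose and 1 fell. Besides Actc1, these were led by Nes, the intermediate filament gene nestin, at 1.31 and by the kinase gene Mylk3 at -2.01. Mylk3 lay below background on cKO 1 and cKO 3 (5.71 and 5.68), so the size of its fall is uncertain.

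Of 26 channel, pump and store genes, of which 16 lay above background on all 6 arrays, 6 rose, among them Kcnj8 and Abcc9, the subunits of the vascular ATP-sensitive potassium channel, at 1.22 each and the sodium-calcium exchanger gene Slc8a1 at 1.14. The calcium pump gene Atp2a2 and the phospholamban gene Pln differed by 0.30 and 0.35 (adjusted p = 0.12 and 0.51). Pln lay above background on only 2 of the 6 arrays, none of them a control. Of 30 receptor and signalling genes 7 rose and 1 fell, including Rgs5 and Rgs4, which damp G protein signals, at 0.99 and 1.11, and Gucy1b1, a subunit of the nitric oxide receptor, at 0.85. Rhoa and Rock1 of the calcium-sensitising pathway differed by 0.02 and 0.11 (adjusted p = 0.93 and 0.59). Of 30 transcription factor genes 8 rose and 2 fell, with Fhl2, an SRF cofactor and target, at 1.39, Tead1 at 0.92 and Prrx1, a mesenchymal homeobox gene, at -1.32.

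Other cell types of the gut wall were read from marker lists on the same arrays. Of 14 enterocyte markers 7 fell, with Vil1 at -0.31 (limma adjusted p = 0.19), Fabp1 at -1.89 and Fabp2 at -1.68. The summed level of the 14 went from between 15.55 and 15.97 in controls to between 14.94 and 14.97 in cKO (log2 of the summed linear values). Epcam and Cdh17 of this list differed by only -0.10 and -0.15 (limma adjusted p = 0.587 and 0.505), with overlapping groups. Of 12 fibroblast markers 8 rose (13.33 to 13.53 in controls, 13.90 to 14.13 in cKO), with Pdgfra at 1.23 and Col1a1 at 0.62. Col1a1 was not called without control 1, 2 or 3, cKO 1 or cKO 3 (limma adjusted p = 0.0555, 0.0982, 0.0837, 0.0509 and 0.0796). Col1a2, Col3a1, Dcn, Lum and Mfap5 also lost their calls when some single arrays were left out. Without control 2 their limma adjusted p was 0.0965, 0.139, 0.0675, 0.0765 and 0.0508. Mfap5 lay above background on only 2 of the 6 arrays, none of them a control, so the size of its rise is uncertain. Tcf21, Dpt, Fbln1 and Twist1 differed by 0.49, -0.32, -0.12 and -0.01 without passing. Of 10 pericyte and vascular muscle markers 5 rose (10.95 to 11.02, and 11.56 to 11.75), with Notch3 at 0.35 (limma adjusted p = 0.10). Kcnj8, Abcc9 and Rgs5, already counted among the pathway genes above, are among these 5. Heyl differed by -0.36 without passing (limma adjusted p = 0.0949), with all cKO arrays below all controls. Of 9 markers of the interstitial cells of Cajal, the gut pacemakers, 4 rose (11.18 to 11.35, and 11.88 to 12.12). Among the 9, Cd44 differed by 1.88, Ano1 by 0.80 (0.0515 without control 2 or cKO 3) and Kit by 0.46 (limma adjusted p = 0.063). Prkcq, Kcnk3, Etv1 and Elovl6 differed by 0.16, 0.14, -0.05 and -0.15 without passing. Of 11 macrophage markers 9 rose (11.22 to 11.34, and 11.93 to 12.34), with Cd68 at 1.05, Adgre1 at 1.22 and Csf1r at 0.18 (adjusted p = 0.36). Of 10 mesothelial markers 5 rose (12.16 to 12.27, and 12.78 to 13.03), with Krt19 at 0.77, Msln at 1.27 (0.0511 without control 3) and Wt1 at 0.16 (adjusted p = 0.58). Krt19, a keratin that gut epithelium also makes, was the brightest of them (control mean 11.63) and weighs most in that sum, and Upk3b, Bnc1 and Rspo1 differed by -0.03, -0.18 and -0.11 without passing. Of 14 neuronal and glial markers 2 rose (11.37 to 11.53, and 11.56 to 11.66), with Ret at -0.37 (adjusted p = 0.17). They were Uchl1 at 0.65, not called without control 2, control 3 or any 1 cKO array (adjusted p = 0.0521 to 0.118), and Snap25 at 0.43, not called with any 1 array left out (0.0606 to 0.173). The largest difference of the 14 was that of Erbb3, -0.71, which did not pass (limma adjusted p = 0.0557), with all cKO arrays below all controls. At an unadjusted p under 0.05 by limma, 4 of the 14 were higher and 2 lower. Of 13 endothelial markers 0 passed by limma and 4 had an unadjusted p under 0.05, with Pecam1 at 0.33 and Cdh5 at 0.30 (11.84 to 11.87, and 12.02 to 12.07). The smooth muscle genes together went from between 14.71 and 14.98 to between 15.53 and 15.68. The part of these shifts in the increases of the smooth muscle genes was not tested.

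**Figure D4:**
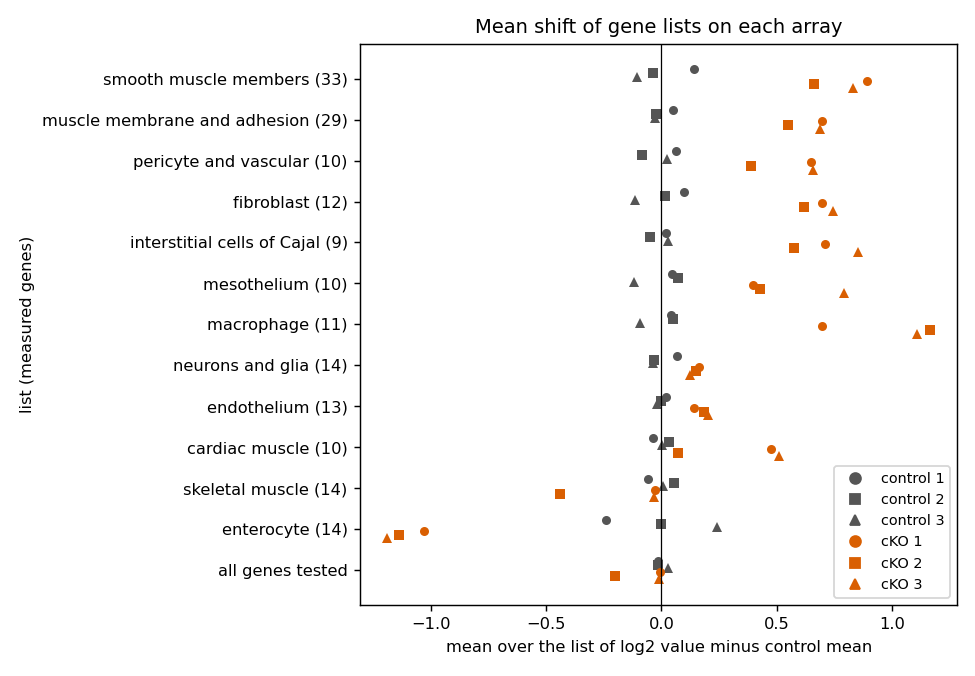
Mean over each list of the log2 value minus the control mean (horizontal axis), by array, with grey symbols for controls and orange for cKO and the number of measured genes in brackets. The 33 smooth muscle genes shift by 0.66 to 0.89 on the cKO arrays, the fibroblast markers by 0.62 to 0.75, the endothelial markers by 0.14 to 0.20 and the enterocyte markers by -1.19 to -1.03.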

How the data were processed

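Total RNA of 3 control and 3 cKO samples of small intestine was biotin-labelled, per the labels' protocols, and hybridised to Affymetrix Mouse Gene 1.0 arrays. The authors processed the arrays with dChip, per the series design text. No source used here gives its version or settings. The deposited values, 1 per probe set and array for 35512 probe sets, were read as log2 expression from their range, since no label names the scale, and were used as deposited. Arrays carry no read depth, and their number limits the precision.

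Gene symbols came from the annotation of the platform (21789 with 1 symbol, 1621 with several, 12102 with none listed), with symbols updated through the gene identifier for 21698. The brightest probe set of each gene gave 19938 genes. All were fitted with limma 3.58.1 in R 4.3.3 (lmFit and eBayes, two-sided, no covariate), with Benjamini-Hochberg adjustment over all genes, a threshold of 0.05 and 95% intervals. The fit was tested on simulated data with independent noise for each gene. These held no shift shared over an array, so such shifts were not covered. Nothing in the labels states that the 3 samples of a group are different animals. The p-values therefore rest on the spread among these samples alone, and that spread may be technical.

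The genes and lists described were chosen with earlier results of these data known, so they are described by counts and medians with no set test. Named genes are all 33, Cdh1, up to 3 called genes with the smallest p of each of 5 pathway lists, and of each marker list the first 2 genes and the called gene with the smallest p. Acta1, Actb, Atp2a2, Bnc1, Cdh17, Cnn2, Cnn3, Col1a2, Col3a1, Dcn, Dpt, Elovl6, Epcam, Erbb3, Etv1, Fbln1, Heyl, Kcnk3, Lum, Mfap5, Mrtfa, Mrtfb, Myh10, Myl6, Pln, Prkcq, Rhoa, Rock1, Rspo1, Sgca, Tagln2, Tcf21, Tpm4, Tnni3, Twist1, Myl4, Myl7, Snap25 and Upk3b were named after their values were seen, as relatives of named genes or other markers of their lists, and the CArG-like box was added then too. Of the 148 listed pathway entries, 137 different genes were measured. Promoter sequences are RefSeq's (GRCm38.p6). Protein sequences were not used here. Alternatives were quantile normalization, median centring, cyclic loess, filters on dim genes, other uses of probe sets, array weights, a trended robust prior, the replicate number as a block, and each array left out in turn.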

Additional observations from a re-analysis of the deposited data

How the results depend on the processing

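The median difference of the 33 genes stayed between 0.71 and 0.91 over the 16 alternatives and the direction of all but Kcnma1 was kept. The count of increases lay between 20 and 30 except when single arrays were left out, where it ran from 14 to 28, and the count of decreases ran from 0 to 1. Of the 29 calls, 14 held with any 1 array left out and 13 under all alternatives. The gene in the first count and not in the second was Ppp1r12b, lost with the mean of its probe sets.

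Fitted over all probe sets, 0 of the 33 were lower (Ldb3 was lost), 7 of the 11 filament genes and 32 of the 137 other pathway genes were higher, and 0 linkage genes were lower. With 1 array left out, the increases ran from 4 to 11 of the filament genes, 6 to 9 of the linkage genes (0 to 1 lower), 1 to 3 of the channels and receptors, 3 to 5 of the regulators and 25 to 45 of the other pathway genes. The median of the pathway genes then ran from 0.27 to 0.34. Elsewhere that median was 0.38 with quantile normalization, 0.40 with median centring, 0.35 with cyclic loess, 0.34 with array weights (9 lower) and 0.41 without the dimmer 50% of genes, where 1 of 3 channel and receptor genes was higher. The median of the regulators was 0.78 with median centring, and that of the linkage genes 0.89 with the mean of all probe sets. The median of all genes turned to 0.0067 both with median centring and without cKO 2, and with 1 array left out it ran from -0.1317 to 0.0067. Kcnma1 was -0.11 with the mean of its probe sets and -0.12 without cKO 1, and with 1 array left out it ran from -0.12 to 0.51. Cdh1 passed without the dimmer 50% of genes (-0.95, adjusted p = 0.0444), with array weights (-0.89, adjusted p = 0.0110) and without cKO 1, its differences with 1 array left out running from -1.30 to -0.64. The causes were not tested, beyond fewer samples or genes where the setting itself leaves them out.

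The labels do not say whether samples with the same replicate number are paired. Deviations of same-numbered arrays from their group means correlated at -0.08, 0.13 and 0.14 over genes. With 3 arrays per group these values cannot show or exclude a pairing. With the replicate block 26 of the 33 were higher and 1 lower, and Acta2 and Chrm3 were not called (adjusted p = 0.0799 and 0.0747).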

Other observations

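Genes of striated muscle were read as a contrast to the smooth muscle genes. Of 10 cardiac muscle markers 3 rose: Actc1 by 1.26, Myl7, an atrial light chain, by 1.21 (adjusted p = 0.012), and Myl4, an atrial and embryonic light chain, by 0.58 (adjusted p = 0.036). The natriuretic peptide genes Nppa and Nppb differed by -0.04 and 0.11 (adjusted p = 0.90 and 0.60), and Nppb and the cardiac troponin gene Tnni3 lay at or below background on all 6 arrays. The call of Myl4 was lost without control 1, 2 or 3 or cKO 3 (adjusted p = 0.112, 0.0949, 0.110 and 0.104). Of 14 skeletal muscle markers 1 rose, Ckm, the muscle creatine kinase, by 0.79 (adjusted p = 0.047), a call lost without control 1, 2 or 3, cKO 1 or cKO 3 (adjusted p = 0.102, 0.123, 0.164, 0.0910 and 0.134). The myogenic factor genes Myod1 and Myog differed by -0.11 and -0.50 (adjusted p = 0.73 and 0.35).

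The 6 smooth muscle genes with control means above 11 differed by 0.47 to 0.89, and the 10 increases of 2-fold or more were all in genes with lower control means.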
